A study of Homo sapiens with 8 samples.

Results

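The response to arginine deprivation was read from ribosome footprints of HEK293T cells that had received no cycloheximide (CHX) before lysis. HEK293T is an established line of human embryonic kidney origin, immortalized and expressing SV40 large T. The sufficient cells (Suff) were kept in the growth medium rebuilt from a DMEM without sulfur amino acids, histidine, leucine and arginine, to which dialyzed serum and all of the missing amino acids had been returned. The arginine-deficient cells (Arg-) were kept over night in the same medium with everything but arginine returned. The series holds 8 libraries, namely Suff, Arg-, Leu- and Met-, each once with and once without CHX, and the comparison rests on 1 library a side, so its ratios have no replicate check and no test was made. Every interval below is a 95% exact interval of the ratio of 2 read counts and covers counting error only.

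A gene entered the comparison by its highest transcript when the mean of its Arg- and Suff values was at least 10 RPKM (reads per kilobase of coding sequence, scaled to the reads of the library), which 7466 of the 11668 genes listed in either library met. The mean is over both libraries, so a gene under 10 RPKM in 1 of them could pass through the other. Counts of higher or lower members in the lists below are partly set by this. Levels are RPKM, and differences are log2 of (RPKM Arg- + 1) over (RPKM Suff + 1). The intervals are of the ratio without the added 1 RPKM, so at low RPKM they are not centred on the printed log2 ratio. The read totals recovered from the steps of the RPKM values were 1610707 for Arg- and 3139745 for Suff, and both lists begin at 5 reads. An RPKM value is a share of its own library, so a gene can stand higher only relative to the other genes of that library. The series holds footprint libraries and no mRNA library. A ratio therefore cannot tell a change in mRNA level from a change in ribosomes per mRNA.

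Arginine is charged onto its tRNAs by RARS1, imported by the cationic transporters SLC7A1 to SLC7A3, and made from citrulline by ASS1 and ASL. When an amino acid is short, uncharged tRNA activates the kinase GCN2 (EIF2AK4), which phosphorylates eIF2 and slows initiation while the mRNA of the transcription factor ATF4 is translated better. ATF4 and its C/EBP partners then raise the genes of amino acid import, synthesis and tRNA charging, through a composite C/EBP-ATF response element in many of their promoters. A second arm, mTORC1, senses arginine through CASTOR1 and SLC38A9 and controls translation of ribosomal protein mRNAs and the inhibitor 4EBP1.

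Of 8 markers chosen for the line, 7 were listed in at least 1 library of the pair. VIM, an intermediate filament protein, stood at 626 RPKM in Arg- and 449.9 RPKM in Suff, and LIN28B, an RNA-binding protein of embryonic cells, at 69.3 and 58.0 RPKM. KRT8, a keratin, was lower at 16.6 and 8.92 RPKM, and NEFL, a neurofilament protein, stood at 32.0 and 58.7 RPKM. Of the 8 markers, 6 were compared and none differed by 2-fold. Of 8 markers of other cell types none was compared, and their summed level was 1.84 RPKM in Arg- and 1.59 RPKM in Suff.

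Most genes lay within 2-fold of Suff. Of 7466 genes, 622 (8.33%) were at least 2-fold higher in Arg- and 452 (6.05%) at least 2-fold lower, and the other 6392 (85.6%) lay between. Every list count below without CHX is to be read beside these shares. The median log2 ratio was -0.02, the middle of the genes ran from -0.46 to 0.45 (quartiles), and 66 genes were 4-fold higher against 25 that were 4-fold lower. These counts hold 9 genes each way that the other library did not list, which have no fold. For 240 of the higher and 124 of the lower genes the counting interval lay wholly past 2-fold. Among the 3152 genes with a mean of at least 50 RPKM the balance was the other way, with 173 higher and 264 lower. The 50 genes with the most RPKM held 30.4% of the summed RPKM in Arg- and 20.7% in Suff.

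**Figure D1:**
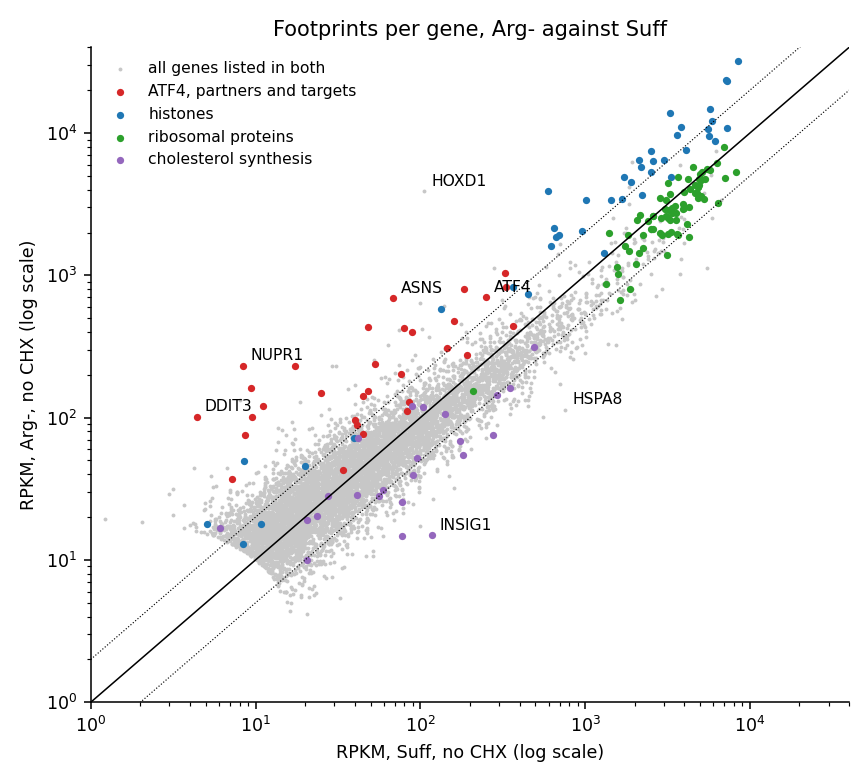
RPKM of each gene listed in both libraries, Suff on the horizontal and Arg- on the vertical axis, both on log scales, with the line of equality solid and the 2-fold lines dotted. ATF4 with its partners and targets (red) and the histones (blue) lie above the line of equality, whereas most cholesterol synthesis genes (purple) lie below it.

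ATF4 and the factors it works with were higher in Arg-. ATF4, the transcription factor itself (chromosome 22, 39520564 to 39522683, GRCh38), was at 700.2 RPKM in Arg- and 250.6 RPKM in Suff, a log2 ratio of 1.48 (interval 1.35 to 1.61). DDIT3 (CHOP), a C/EBP-family partner of ATF4 linked to prolonged stress, was at 101 RPKM in Arg- and 4.40 RPKM in Suff, on 94 and 8 reads, with a log2 ratio of 4.24 (3.48 to 5.77). ATF3, a repressor and activator induced downstream of ATF4, was at 434 and 47.8 RPKM, with a log2 ratio of 3.16 (2.84 to 3.55). All 3 were higher than in Suff, and the interval of none reached down to 2-fold.

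All 7 of the 12 listed ATF4-family and partner factors that could be compared were at least 2-fold higher, with a median log2 ratio of 3.16. NUPR1, a small stress-induced chromatin protein, had the largest log2 ratio of them at 4.61 (229 against 8.41 RPKM). TRIB3, a pseudokinase that feeds back on ATF4, was at 162 and 9.35 RPKM, with a log2 ratio of 3.98. CEBPB and CEBPG, the C/EBP partners, had log2 ratios of 2.54 and 1.40.

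The kinases and the phosphatase of eIF2 act upstream of ATF4. EIF2AK4, the arginine-responsive kinase in this scheme, was below the filter at 8.40 RPKM in Arg- and 8.94 RPKM in Suff. EIF2S1, the eIF2 alpha subunit that it phosphorylates, was at 128 and 197 RPKM, a log2 ratio of -0.61 (-0.86 to -0.38). Of the 6 compared genes of the eIF2 kinases and phosphatase only PPP1R15A was 2-fold higher. PPP1R15A (GADD34), the inducible subunit of the phosphatase that restores eIF2, was at 31.3 RPKM in Arg- and 3.15 RPKM in Suff, with a log2 ratio of 2.96 (2.61 to 4.08). It passed the filter only through its Arg- level.

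The targets of ATF4 stood higher as a group. Of 36 listed targets 25 were compared, 19 of them at least 2-fold higher, none 2-fold lower and all 25 above 0, with a median log2 ratio of 1.66 against -0.02 over all genes. Members under 10 RPKM in Suff, such as TXNIP and INHBE, passed the filter through Arg-, so these counts are partly set by it. ASNS, which makes asparagine, was at 689 RPKM in Arg- and 68.0 RPKM in Suff, with a log2 ratio of 3.32 (3.18 to 3.51). CTH, which makes cysteine from cystathionine, was at 231 and 17.3 RPKM, with a log2 ratio of 3.67. Mitochondrial PCK2, which makes phosphoenolpyruvate, and TXNIP, an inhibitor of thioredoxin and glucose uptake, had log2 ratios of 3.33 and 2.98. The secreted hormone STC2 had a log2 ratio of 2.41, while MTHFD2, a mitochondrial folate enzyme, was at 442 and 364 RPKM with a ratio of 0.28. INHBE, a secreted inhibin subunit, was at 22.4 RPKM on 38 reads in Arg- and was not listed in Suff. GDF15, a secreted stress cytokine, was at 4.69 RPKM in Arg- and likewise was not listed in Suff.

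Within the serine, glycine and one-carbon enzymes, 7 of 12 were 2-fold higher and 1 was lower, with a median log2 ratio of 1.28. PHGDH, PSAT1 and PSPH, the consecutive enzymes of serine synthesis, had log2 ratios of 1.67, 1.32 and 1.66. SHMT2 and ALDH1L2, the mitochondrial enzymes that use serine and formyl-folate, had log2 ratios of 1.57 and 2.20. GCSH, the lipoyl carrier of glycine cleavage, went the other way at 134 RPKM in Arg- and 369 RPKM in Suff, a log2 ratio of -1.45.

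**Figure D2:**
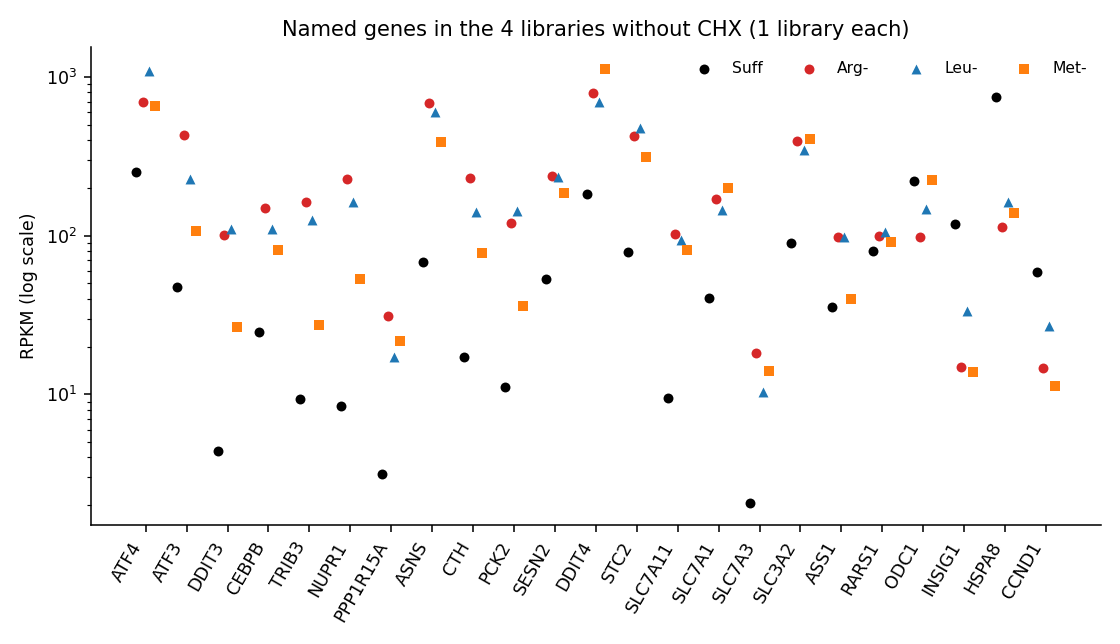
RPKM (log scale) of 23 named genes in the 4 libraries without CHX, 1 library each, so the points carry no replicate error. From ATF4 to ASS1 the Arg- point lies above the Suff point, for RARS1 both lie close together, and for ODC1, INSIG1, HSPA8 and CCND1 the Arg- point lies below.

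Amino acid transporters divided by family member. Of 18 compared, 11 were at least 2-fold higher and 2 lower, with a median log2 ratio of 1.42. SLC7A3, SLC7A11 and SLC1A4 were under 10 RPKM in Suff and passed the filter through Arg-. SLC7A1 (CAT-1), the main arginine importer of most cells (chromosome 13, 29509414 to 29595688), was at 170 RPKM in Arg- and 40.3 RPKM in Suff, with a log2 ratio of 2.05 (1.86 to 2.31). SLC7A3, a second cationic transporter, was at 18.4 RPKM on 55 reads and 2.06 RPKM on 12 reads, with a log2 ratio of 2.66, whereas SLC7A2 was at 17.8 and 19.3 RPKM. SLC7A1 and SLC7A3 thus stood higher in Arg-, and the interval for SLC7A2, from -0.59 to 0.34, included no difference.

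Of the heteromeric exchangers, SLC3A2, the shared heavy chain, had a log2 ratio of 2.14 and SLC7A11, the cystine carrier, of 3.29. SLC7A5, the leucine carrier on the same heavy chain, was at 223 RPKM in Arg- and 170 RPKM in Suff, a log2 ratio of 0.39, and SLC7A6, which exchanges arginine for neutral amino acids, was at 16.4 and 38.1 RPKM, a ratio of -1.16. The neutral amino acid carriers SLC1A4 and SLC38A2 had log2 ratios of 2.66 and 1.65. SLC1A3, a glutamate carrier, was the other lower member, at 9.91 and 23.7 RPKM.

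Genes that make or use arginine were mostly within 2-fold, as were 85.6% of all genes. Of 12 compared members of arginine and proline metabolism, 1 was higher and 1 lower, with a median log2 ratio of 0.39. The higher one was ASS1, argininosuccinate synthetase (chromosome 9, 130444962 to 130501274), at 98.7 RPKM on 197 reads in Arg- and 35.5 RPKM on 138 reads in Suff, a log2 ratio of 1.45 (1.16 to 1.80). ASL, the next enzyme, was at 33.8 and 20.6 RPKM, with a ratio of 0.69 (0.26 to 1.18). ARG2, the arginase of mitochondria, was at 39.6 and 30.8 RPKM, and its interval, -0.10 to 0.82, included no difference. PYCR3, which makes proline, was the lower one, with a log2 ratio of -1.24.

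Among the 9 polyamine genes 2 were higher and 2 lower. ODC1, which turns ornithine into putrescine, was at 97.7 RPKM in Arg- and 221 RPKM in Suff, a log2 ratio of -1.17 (-1.40 to -0.96), while AZIN1, which shields ODC1 from its antizyme, had a ratio of 1.25. SAT1, which acetylates polyamines for export, had a ratio of 1.50 on 35 and 23 reads, and the antizyme OAZ2 of -1.21. Of 9 genes for protein arginine methylation, PRMT7 was 2-fold higher and PRMT2 2-fold lower. Over all genes 8.33% were 2-fold higher and 6.05% 2-fold lower. PRMT1, the main methyltransferase, was at 390 and 544 RPKM, a ratio of -0.48.

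The synthetases that charge tRNAs were listed by compartment. Of 23 cytosolic synthetases and their scaffold proteins 11 were at least 2-fold higher, none 2-fold lower and 20 above 0, with a median log2 ratio of 0.99. The median coding length was 1878 nt for this list and 1612.5 nt for the transporters. Of all genes of 1404 to 2010 nt, 9.20% were 2-fold higher, with a median ratio of 0.14. The part of length was not tested. None of the 16 mitochondrial synthetases passed 2-fold either way, and their median was 0.39. CARS1 and AARS1, for cysteine and alanine, had the largest ratios of 2.22 and 2.09. RARS1, which charges arginine itself, was at 98.9 RPKM in Arg- and 80.5 RPKM in Suff, a log2 ratio of 0.29 (0.09 to 0.50). HARS1, for histidine, was lowest at 51.5 and 103 RPKM, a ratio of -0.99. The arginine synthetase therefore stood near the bottom of its group, above HARS1, KARS1 (lysine), FARSA (phenylalanine) and the scaffold proteins AIMP1, AIMP2 and EEF1E1.

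Letters of the C/EBP-ATF response element were searched in the promoter windows that RefSeq gives (GRCh38.p14), from 250 bases before to 50 bases after each annotated start. The motif was TGATGCAA on either strand, and it was present in 304 of 35116 windows (0.866%), or at 295 of 27305 genes (1.08%). Of the compared genes with a window, it was at 15 of 504 (2.98%) that were 2-fold higher, 2 of 364 (0.549%) that were 2-fold lower and 26 of 5198 (0.500%) in between. It was at 6 of 19 cytosolic synthetase genes (31.6%), 4 of 26 ATF4 target genes, 3 of 20 transporter genes and none of the 14 mitochondrial synthetase genes with a window. The synthetase windows are printed with those of the partner factor CEBPG, the carrier SLC1A4 and the ER protein HERPUD1, so that the shared letters can be seen beside the ratios. The 8 letters of the motif are in capitals, each line is 5′ to 3′ along the strand that holds them, and a match says nothing about what binds there.
AARS1, chr16:70289675-70289704, plus strand: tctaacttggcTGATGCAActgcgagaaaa
CARS1, chr11:3057407-3057436, plus strand: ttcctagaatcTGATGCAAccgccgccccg
IARS1, chr9:92293692-92293721, plus strand: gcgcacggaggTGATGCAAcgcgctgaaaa
MARS1, chr12:57488053-57488082, minus strand: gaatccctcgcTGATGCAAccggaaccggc
NARS1, chr18:57621804-57621833, minus strand: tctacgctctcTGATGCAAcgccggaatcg
TARS1, chr5:33440956-33440985, minus strand: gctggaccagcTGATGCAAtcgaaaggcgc
CEBPG, chr19:33374060-33374089, plus strand: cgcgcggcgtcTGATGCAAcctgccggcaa
SLC1A4, chr2:64989381-64989410, minus strand: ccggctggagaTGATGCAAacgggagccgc
HERPUD1, chr16:56931955-56931984, minus strand: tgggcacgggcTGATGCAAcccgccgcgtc
Beside these letters the log2 ratios were 2.09 for AARS1, 2.22 for CARS1, 1.54 for IARS1, 1.70 for MARS1, 0.99 for NARS1 and 1.49 for TARS1. For CEBPG, SLC1A4 and HERPUD1 they were 1.40, 2.66 and 1.63. SLC1A3 holds the same letters and was 2-fold lower, and ASNS and DDIT3, both higher, are not among the genes with these exact letters in the window. PPP1R15B, RPS23, BCAT1 and GOT1 hold them too and had ratios of 0.04, -0.89, 0.59 and 0.84. SLC1A5, MTHFD1L and TSC2, which also hold them, had 1.11, 1.23 and 1.14. Of the 43 compared genes with the letters, 26 lay within 2-fold.

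Of the amino acid sensing and mTORC1 genes 29 of 43 were compared, with 6 higher, 2 lower and a median log2 ratio of -0.04. The shares over all genes were 8.33% higher and 6.05% lower. The higher ones were the inhibitors SESN2 and DDIT4, the lysosomal arginine sensor SLC38A9, the KICSTOR subunit ITFG2, TSC2 and EIF4EBP1. SESN2, which restrains mTORC1 through GATOR2, was at 237 RPKM in Arg- and 53.4 RPKM in Suff, a log2 ratio of 2.13, and DDIT4, which acts through TSC2, had a ratio of 2.11. EIF4EBP1, the initiation inhibitor 4EBP1, was at 1127 RPKM on 648 reads and 280.1 RPKM on 314 reads, 4.01-fold higher (log2 interval 1.81 to 2.21). CASTOR1, the cytosolic arginine sensor, was below the filter, at 1.61 RPKM in Suff and not listed in Arg-.

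Translation of ribosomal protein and elongation factor mRNAs is controlled by mTORC1. Of 31 proteins of the 40S subunit 3 were 2-fold lower and none higher, with a median log2 ratio of -0.33, and of 44 proteins of the 60S subunit 1 was lower and none higher, with a median of -0.22. RPSA, RPS12 and RPS26 of the small subunit had log2 ratios of -1.27, -1.24 and -1.17. With CHX, 15 of 33 proteins of the 40S and 14 of 43 of the 60S subunit were 2-fold lower and 1 of each higher, with medians of -0.71 and -0.60. In that pair 19.7% of all genes were 2-fold lower and 16.6% higher, with a median of -0.23. Its ratios also rose with coding length (Spearman's rho 0.50), and these proteins are short, so the part of length was not tested. Of 16 elongation and other TOP-mRNA factors 1 was higher and 1 lower without CHX, with 6 below 0 and a median of 0.19. EEF1A1, the elongation factor that carries tRNA, was at 5936 RPKM in Arg- and 3764 RPKM in Suff, a ratio of 0.66, and EEF2, the translocase, had a ratio of 0.99. TPT1, a growth-related protein, and HNRNPA1, a splicing factor, of the same list had -1.09 and -0.93. Ribosomal protein genes share sequence with many pseudogenes, so their counts are uncertain.

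Short coding sequences were lower in general, and these lists are short. By quintile of coding length the median log2 ratio went from -0.33 (114 to 660 nt) through -0.22, -0.08 and 0.14 to 0.40 (2010 to 13125 nt), and Spearman's rho across 7232 genes of 1 library pair was 0.36. The 40S, 60S, mitochondrial ribosome and oxidative phosphorylation lists had median coding lengths of 459, 490.5, 606 and 457.5 nt against 1200 nt over all genes. Their medians of -0.33, -0.22, -0.30 and -0.49 stand beside the -0.33 of the shortest quintile, and the part of length in them was not tested. Of 75 mitochondrial ribosomal proteins 4 were 2-fold lower, and of 70 respiratory chain subunits 8, with none higher in either list. Over all genes 6.05% were 2-fold lower, and in the shortest quintile 13.2%. The counts of lower genes in these lists, those of the 40S and 60S proteins included, are to be read beside those shares.

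**Figure D3:**
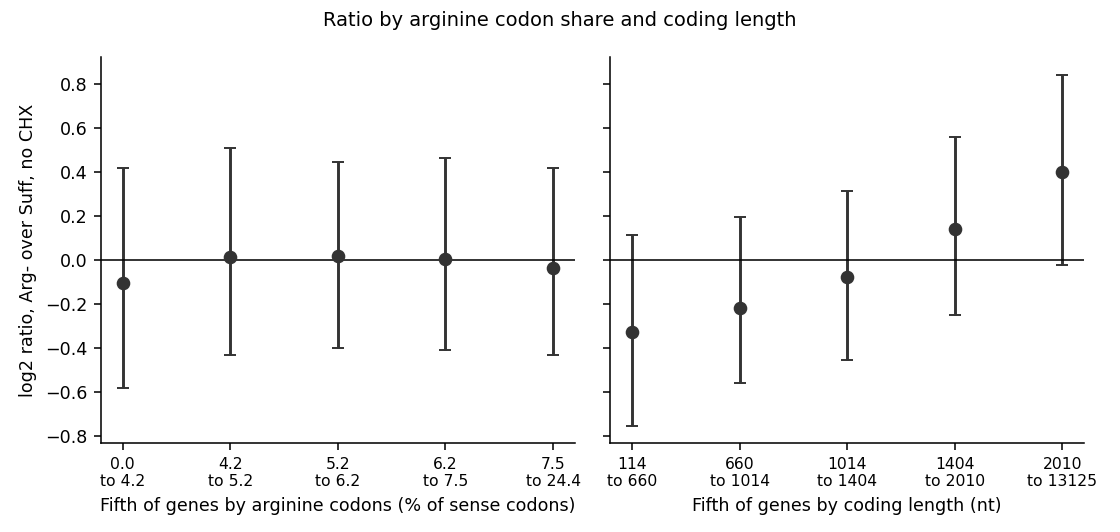
Median log2 ratio of Arg- over Suff (points) with quartiles (bars) for quintiles of the genes ordered by the share of arginine codons (left) and by coding length in nt (right). The medians on the left stay between -0.11 and 0.02, and those on the right go from -0.33 to 0.40.

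Ratios hardly followed the share of arginine codons in a gene. By quintile of the share of arginine codons the medians were -0.11, 0.01, 0.02, 0.00 and -0.04, from the fewest to the most. Across 7232 genes, which share the 2 libraries and their base composition, rho was 0.037, the 6th highest of the 20 amino acids, with serine highest at 0.14 and glycine lowest at -0.11. Of the 6 arginine codons AGA and CGT had the highest rho, 0.09 each, and CGG the lowest at -0.05. With CHX, in libraries of their own, rho for the arginine share was -0.14. The number of arginine codons per gene, which grows with coding length, had a rho of 0.34 without CHX, beside 0.36 for coding length.

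Histones gave more of the higher genes than any other list. Of 54 replication-dependent histone genes 42 were compared, 30 were at least 2-fold higher, none was 2-fold lower and all 42 lay above 0, with a median log2 ratio of 1.28. They took 172531 of the coding reads in Arg- (10.7%) and 138174 in Suff (4.40%). H3C2, an H3 gene, was at 32195 RPKM in Arg- and 8476 RPKM in Suff, a log2 ratio of 1.93 (1.89 to 1.96). H4C11, an H4 gene, had the largest ratio of the list, 2.73, on 1975 and 580 reads. These genes are near copies of each other, so how reads were dealt out among them is uncertain. Since histone mRNAs are made in S phase, a larger share of cells in that phase and more footprints per cell cannot be told apart in a bulk library.

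The 5 histone classes differ in arginine content, and were set apart by name after the values were seen. The linker histones H1, with 1.41% to 1.83% arginine codons, had a median log2 ratio of 0.58 over 3 genes, none 2-fold higher. H2B, with a median of 6.35%, had 1.10 over 13 genes, H2A, with 9.23%, had 1.54 over 11, H3, with 13.2%, had 1.60 over 7, and H4, with 13.6%, had 1.42 over 8. H1, with the fewest arginine codons, had the smallest median, whereas H4, with the most, lay below H2A and H3. With CHX the medians were 0.10 for H1, 0.14 for H2A, 0.20 for H2B, 0.70 for H3 and 0.77 for H4. Of 543 genes other than histones with an arginine share of at least 9.23%, 40 (7.37%) were 2-fold higher and 28 (5.16%) lower, with a median of -0.04. Their median coding length was 780 nt against 391.5 nt for the histones, so the sets are not matched. Genes of 660 to 1014 nt had a median of -0.22. The part of arginine content was not tested.

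**Figure D4:**
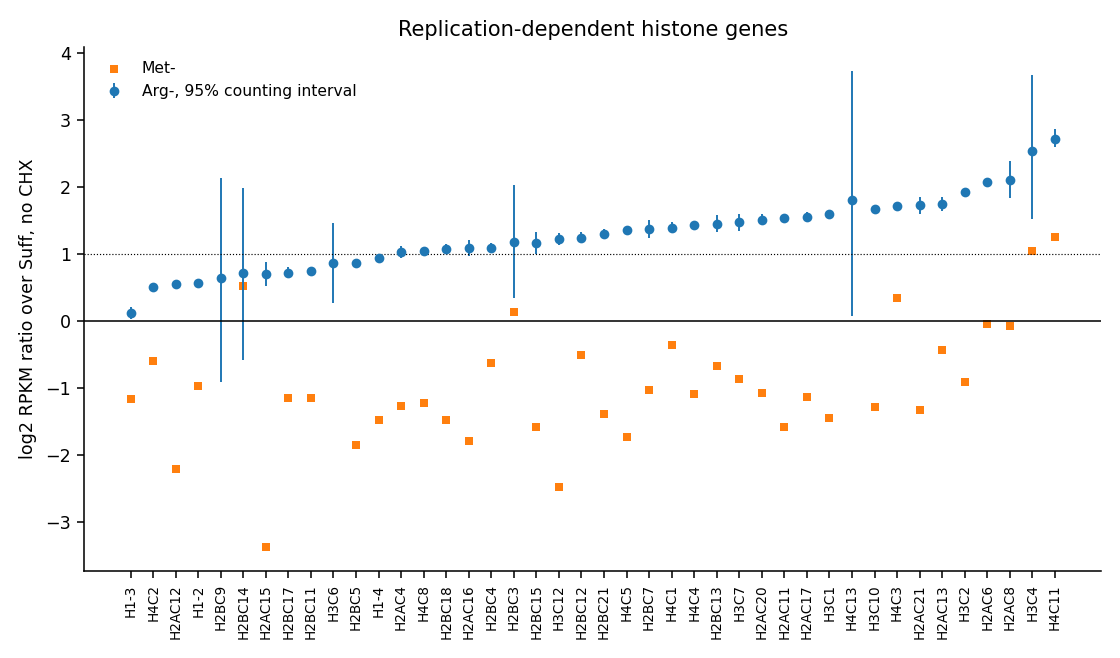
Log2 RPKM ratio over Suff, without CHX, of the replication-dependent histone genes in order of the Arg- ratio, with Arg- as circles with 95% counting intervals and Met- (log2 of RPKM + 1) as squares. All 42 Arg- circles lie above 0, whereas most Met- squares lie below it.

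Around the histones, DNA replication genes leaned higher, with 6 of 36 at least 2-fold higher, none lower and a median log2 ratio of 0.34. RRM1, the large subunit of ribonucleotide reductase, was at 129 RPKM in Arg- and 44.7 RPKM in Suff, a ratio of 1.50, and LIG1 and MCM3, the replicative ligase and a helicase subunit, had 1.47 and 1.37. PCNA, the sliding clamp, had 0.43. The list has a median coding length of 1662 nt, and genes of 1404 to 2010 nt had a median ratio of 0.14 with 9.20% of them 2-fold higher, so the part of length was not tested here either. Of 27 cyclin, CDK inhibitor and mitosis genes 2 were higher and 2 lower, with 13 above 0 and a median of -0.09. These counts lie near the 8.33% higher and 6.05% lower over all genes. The higher ones were CDC25C, a mitotic phosphatase, and KIF11, a spindle motor, with ratios of 1.17 and 1.16. The lower ones were the cyclins CCND1, at 14.7 RPKM on 21 reads and 59.2 RPKM on 165 reads, a ratio of -1.94, and CCNE1, with a ratio of -1.82.

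Cholesterol synthesis was the list with the lowest median, at -0.92. Of 23 genes 9 were at least 2-fold lower and 1 higher, beside 6.05% lower and 8.33% higher over all genes. INSIG1, which holds the sterol-regulated factor SREBP in the ER and is itself an SREBP target, was at 14.9 RPKM on 20 reads in Arg- and 118 RPKM on 309 reads in Suff, a log2 ratio of -2.90 (-3.72 to -2.33). MSMO1 and IDI1, enzymes of the pathway, had ratios of -2.32 and -1.71, and FASN, the fatty acid synthase, -1.58. The higher member was SREBF1, an SREBP gene, with a ratio of 1.33.

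Cytosolic chaperones and tubulins were lower in part. Of 13 heat shock chaperones 5 were 2-fold lower and 1 higher, beside 6.05% lower and 8.33% higher over all genes. HSPA8, the constitutive HSP70, was at 114 RPKM on 356 reads in Arg- and 754 RPKM on 4595 reads in Suff, a log2 ratio of -2.72 (-2.89 to -2.57), and its helper DNAJB1 had -1.92. HSPE1, the mitochondrial co-chaperonin, had -2.24, while HSPA9, the mitochondrial HSP70, was the higher one at 1.02. Of 10 tubulin genes 4 were 2-fold lower and none higher, with a median of -0.85, and these share near-identical stretches, so their counts are uncertain. All 8 subunits of the CCT chaperonin, which folds tubulin, lay within 2-fold, as did 85.6% of all genes.

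The ER unfolded protein response, a parallel stress arm that also feeds ATF4, was mixed, with 4 of 23 higher, 2 lower and a median of 0.04. For this list and the BCL2 family the shares over all genes were 8.33% higher and 6.05% lower. HERPUD1 and the sensor ATF6 had log2 ratios of 1.63 and 1.49, HSPA5, the ER chaperone BiP, was at 216 RPKM in Arg- and 137 RPKM in Suff with 0.65, and SDF2L1 and CRELD2, ER folding factors, had -1.38 and -1.17. Of 11 BCL2 family genes 3 were higher, none was 2-fold lower and 6 lay below 0, with a median of -0.03. PMAIP1 (NOXA) and BBC3 (PUMA), both pro-death members, had ratios of 2.02 and 1.32, and BAX, also pro-death, had -0.89. HRK, another of them, was at 38.2 RPKM on 17 reads in Arg- and was not listed in Suff, so it passed the filter through Arg-. JUN, an AP-1 factor and dimer partner of ATF3, was at 638 and 99.8 RPKM, a ratio of 2.67. SMG9, a nonsense-mediated decay factor, had 2.42. GADD45A, a stress-induced growth arrest protein, had 2.25.

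Several lists stayed near the middle of all genes. Glycolysis (18 genes, median -0.15), autophagy (20 genes, -0.01), lysosome (27 genes, -0.06) and ribosome biogenesis (29 genes, -0.06) had at most 3 members 2-fold higher. Of all genes 8.33% were 2-fold higher. Proteasome subunits were slightly lower, with 27 of 30 below 0 and a median of -0.42, and 1 of them, PSMA1, was 2-fold lower. Of 20 glutathione and antioxidant genes 14 lay below 0, with a median of -0.50. PRDX1 and TXN, a peroxiredoxin and thioredoxin, had log2 ratios of -1.91 and -1.55, beside SLC7A11 at the other end.

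**Figure D5:**
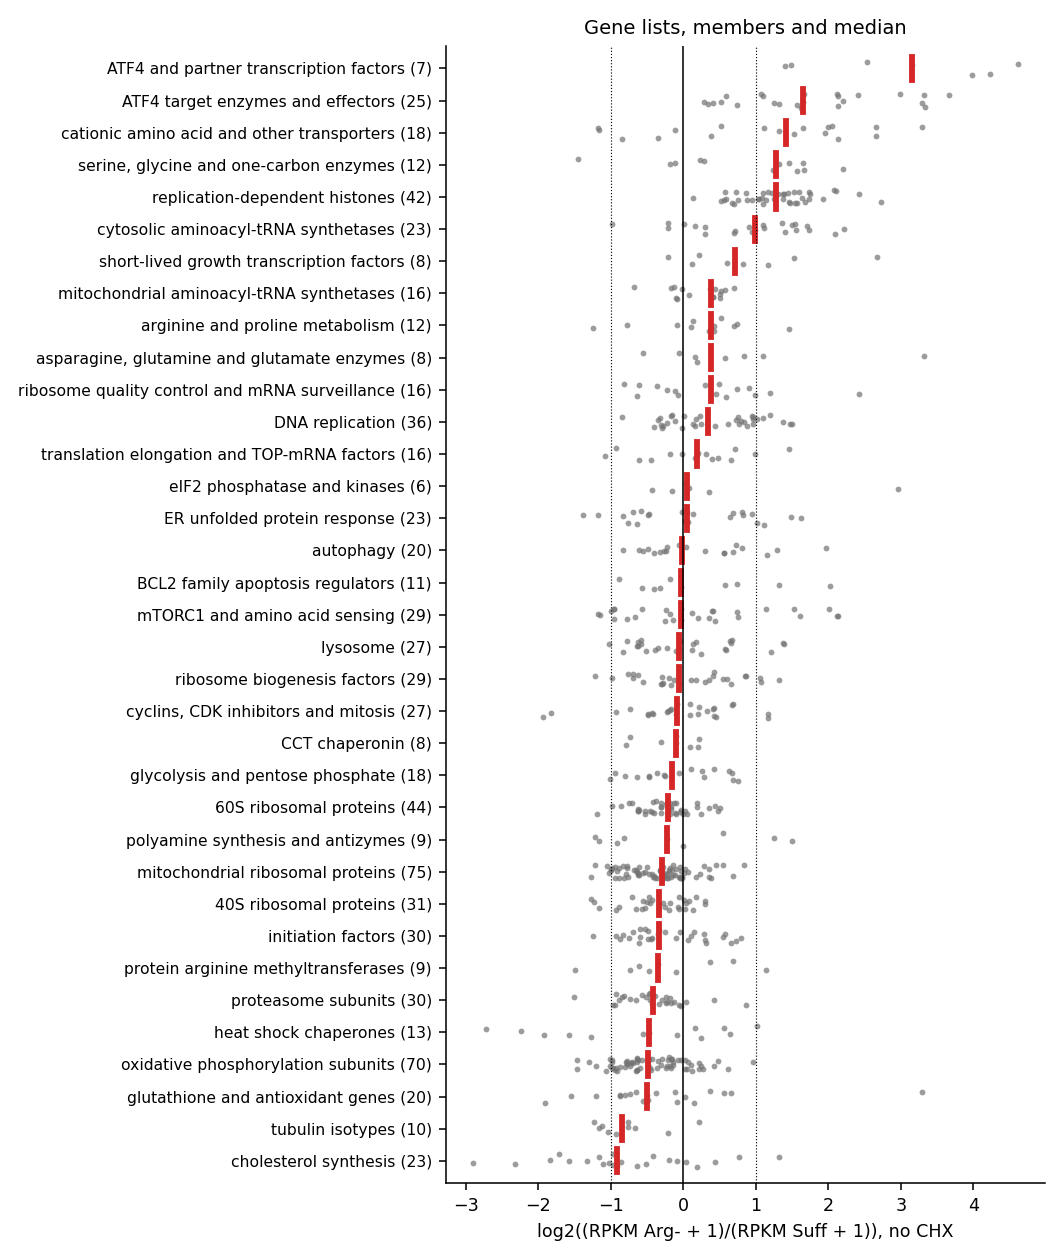
Log2 ratio of Arg- over Suff, without CHX, for each compared member (points) of 35 gene lists, with the number compared in brackets and the list median as a red bar. Medians run from 3.16 for ATF4 and its partners to -0.92 for cholesterol synthesis, and members not listed in one library (INHBE, HRK and NDUFA13) count in the median but have no point.

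The largest ratio of any gene listed in both libraries belonged to no pathway list. HOXD1, a homeobox factor (chromosome 2, 176188668 to 176190907), was at 3884 RPKM on 6175 reads in Arg- and 105.5 RPKM on 327 reads in Suff, a log2 ratio of 5.19 (5.04 to 5.37). It was at 720.2 RPKM in Leu- and was not listed in Met-, nor in Suff or Arg- with CHX. At the low end PTMA, an acidic chromatin protein, was at 1131 and 5497 RPKM, a ratio of -2.28, and DBI, an acyl-CoA binding protein, at 101 and 553 RPKM, a ratio of -2.44. Further, 9 compared genes were listed only in Arg- and 9 only in Suff, among the latter NDUFA13, a complex I subunit, on 62 reads.

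The pair with CHX shares no library with this one, and gives a second look at the same medium. There 844 of 5074 genes listed in both libraries (16.6%) were at least 2-fold higher in Arg- and 1001 (19.7%) lower, with a median log2 ratio of -0.23, and its lists begin at 64 reads. Of the 622 higher genes this pair lists 203, of which 181 lay above 0 and 124 were 2-fold higher there. Of the 452 lower genes it lists 335, of which 306 lay below 0 and 183 were 2-fold lower. These counts are to be read beside the shares and the median of that pair. Ratios rose with coding length in both pairs, with rho 0.36 without and 0.50 with CHX. ASNS was at 618 RPKM in Arg- and 22.3 RPKM in Suff with CHX, a log2 ratio of 4.73, and SLC7A1 at 117 and 13.9 RPKM, a ratio of 2.99.

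The lists differed in how alike the pairs were. ATF4 targets had a median log2 ratio of 1.66 without and 1.84 with CHX, and cytosolic synthetases of 0.99 without and 2.10 with it, where RARS1 stood at 2.07. Histones had 1.28 without and 0.35 with CHX, cholesterol genes -0.92 and -0.11, and heat shock chaperones -0.48 and 1.12. EIF4EBP1 was 4-fold higher without CHX and at 629.8 RPKM in Arg- and 780.1 RPKM in Suff with it. MYH9 and MYH10, the heavy chains of non-muscle myosin, were lower without CHX, with ratios of -2.29 and -2.44, and higher with it, with 1.34 and 1.41. The pairs differ in CHX and also in depth and in the lowest count listed. The records also mark duplicate reads as removed for the libraries without CHX, which can cap abundant genes. The differences between the pairs were not tested.

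Leu- and Met- cells without CHX were compared with the same Suff library, so their ratios are not independent of those for Arg- and are given only side by side. ATF4 was at 1098 RPKM in Leu- and 661.6 RPKM in Met-, beside 700.2 RPKM in Arg-. DDIT3 was at 110 and 26.5 RPKM beside 101 RPKM, and TRIB3 at 125 and 27.2 RPKM beside 162 RPKM. CEBPG was at 243 and 420.3 RPKM beside 201 RPKM, and ATF3 at 228 and 107 RPKM beside 434 RPKM. The order of the media thus differed between these factors: Met- was lowest of the 3 for DDIT3, TRIB3 and ATF3 and highest for CEBPG. For ATF4 the Met- and Arg- levels were close, with Leu- above both. These levels carry no interval here and are not adjusted for the medians over all genes.

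Other groups had another order. Over all genes the median log2 ratio was 0.14 in Leu- and 0.31 in Met- beside -0.02 in Arg-, and list medians are to be read against these. The 60S ribosomal proteins had a median log2 ratio of -0.89 in Leu- and -0.64 in Met- beside -0.22 in Arg-, with the 40S proteins at -1.02 and -0.43 beside -0.33. Histones had 0.35 in Leu- and -1.13 in Met- beside 1.28 in Arg-, and their share of the coding reads was 6.08% and 2.25% beside 10.7%. Cholesterol genes had -0.51 and -0.16 beside -0.92. ASS1 was at 97.6 RPKM in Leu- and 39.7 RPKM in Met- beside 98.7 RPKM in Arg-, and SLC7A1 at 145 and 199 RPKM beside 170 RPKM. ASS1 thus stood at much the same level in Arg- and Leu-. The SLC7A1 levels carry no interval here and are not adjusted for the medians over all genes.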

How the data were processed

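Footprints were collected from 8 HEK293T cultures and sequenced as 1 library each. The study's methods state that reads of 25 to 35 nt were kept, quality-trimmed and aligned to the human transcriptome (GRCh38) with Bowtie without mismatches, and that unique alignments were used for ribosome densities; how RPKM was computed is not given in the sources used here. The submitters' processing notes also name cutadapt, and their records for the libraries without CHX mark duplicate reads as removed, which can cap the most abundant genes. The deposited values are RPKM per transcript, whose steps match 1 read per coding length.

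Transcripts were named through GENCODE release 44, which matched about 97.0% of those compared. Whole read counts were recovered from the RPKM steps (97.2% of values whole within 0.01 in either library of the pair). Ratios used a pseudocount of 1 RPKM and a mean of at least 10 RPKM, and intervals are exact conditional binomial intervals. The steps were checked on simulated data. Named genes were a set of pathway genes, up to 4 per list with the largest ratios, and the 15 largest differences each way among genes with at least 10 RPKM and a recovered count in both libraries and an interval past 2-fold. Members and the 37 lists were chosen with earlier results of these data known. Alternatives were a pseudocount of 0.1, a minimum of 50 RPKM or none, genes listed in both libraries, summed transcripts, centred ratios, and Suff thinned to the Arg- depth. Python 3.11.15, numpy 2.4.6, pandas 2.3.3 and scipy 1.17.1 were used.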

Additional observations from a re-analysis of the deposited data

Results flagged for a closer look

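In 3 named genes the Arg- ratio was at least 2-fold one way without CHX and at least 2-fold the other way with it. The log2 ratio of MYH9 was -2.29 without and 1.34 with CHX, that of MYH10 was -2.44 and 1.41, and that of NPM1, a nucleolar chaperone, was -1.22 and 1.47. Each value rests on 1 library a side, and the difference between the pairs was not tested. MYH9 went from 160 RPKM in Suff to 32.1 RPKM in Arg- without CHX, and from 13.6 to 35.8 RPKM with it. NPM1 went from 5869 to 2512 RPKM without CHX, and from 456 to 1264 RPKM with it. Of the 4765 compared genes that both libraries with CHX list, 9 met this description, 3 of them higher without CHX and 6 lower.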

How the results depend on the processing

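No paired analysis was possible because both groups compared hold 1 library each and share fewer than 2 replicate numbers. A fit over all 8 libraries with CHX as a term was not run. The minimum level had the largest effect. With a mean of at least 50 RPKM, 173 genes were 2-fold higher and 264 lower, the median log2 ratio was -0.22 and rho with the arginine codon share 0.10. With no minimum, 1202 were higher and 1067 lower, the median was 0.039 and rho 0.00225, the added genes being those with few reads. Centring set the median to 0. The list medians stayed within their order-statistic intervals in all 252 recalculations, and no named gene that differed by 2-fold changed sign. Of the named genes with a counting interval, DDIT3 and NUPR1, on 8 reads each in Suff, fell under 5 reads when Suff was thinned and then had no fold, and no other ratio moved by more than the error its interval gives. PHGDH, INHBE, HRK and NDUFA13 have no interval to be read against. Depth limits the low genes most: the median interval was 0.40 wide on either side on the log2 scale. With 1 library a side, differences between cultures cannot be told apart from the effect of the medium.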
